A study of Mus musculus with 6 samples.

Results

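Glycolysis splits glucose into pyruvate and yields ATP without oxygen, and lactate dehydrogenase turns pyruvate into lactate or back again. In the follicle, granulosa and cumulus cells take up glucose and carry out most of the glycolysis, while the mouse oocyte uses glucose poorly and relies on the pyruvate that its companion cells pass to it. Factors secreted by the oocyte are known to promote the expression of glycolytic enzymes in mouse cumulus cells. Many glycolytic genes are also targets of the hypoxia-inducible factors (HIF), which are active when oxygen is low.

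The set described here holds 34 genes of glycolysis, lactate metabolism and glucose transport, found in the table by gene symbol, with no threshold on their values. Of these, 31 were among the 16454 genes of the deposited table. The remaining 3, Slc2a4 (the insulin-responsive glucose transporter GLUT4), Pgam2 (muscle phosphoglycerate mutase) and Eno3 (muscle enolase), were not measured. The values are RNA levels in whole ovaries of CD1 mice at postnatal day 21, from generation 3 (F3) of lineages founded by dosed dams (F0). The founding dams of the DEHP lineage had received 20 µg/kg/day of DEHP, the plasticizer di(2-ethylhexyl) phthalate, and those of the control lineage the vehicle, tocopherol-stripped corn oil. The labels give dosing for the founding generation only, and the comparison asks whether expression differs between descendants of the 2 kinds of dam. Each lineage is represented by 3 ovaries that were sequenced singly, 6 in all. Litters and founding dams of the ovaries are not in the labels, and each p-value therefore reflects spread among the 6 ovaries only, which may be technical.

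Levels are CPM, read counts scaled to the total of each library, taken off the log2 scale on which the authors deposited them. Read counts were not used here, so the sequencing depth is unknown. Over all genes, CPM summed to 979868.5 to 1026735.1 per library. The authors' values had a surrogate variable, an estimated nuisance direction across samples, already removed: deviations from the lineage means filled 3 of 4 possible directions, and the missing direction had its largest weights on replicates 1 (-0.60) and 3 (0.75) of the DEHP lineage. These 2 ovaries correlated at 0.998 across genes, against 0.978 to 0.989 for the other pairs, and removal of a direction lowers the spread shown, most of all in the DEHP lineage. The SD was larger in the control lineage for 22 of the 31 genes (71%), as it was for 69.6% of all genes. Markers of ovarian cells had values in every library: granulosa (13 of 13 measured), oocyte (13 of 13) and theca and interstitial cells (8 of 8). Of these, Insl3, a theca marker, was low, at -1.26 to -0.18 log2 CPM. In whole tissue, fewer cells of a type and less RNA per cell cannot be told apart.

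Promoter sequence is shown first for the genes whose lineages did not overlap and that have an entry in RefSeq's promoter table (Hk2, Pfkfb2 and Eno2), and for Ldha and Pgk1, well known HIF targets whose levels moved together across the control ovaries. Each run is the 250 bases before a RefSeq start, 5′ to 3′ on the strand of the gene, in build GRCm38.p6. Capitals mark the cores of the HIF response element, ACGTG and GCGTG, read on both strands. A CACGTG, the E-box that MYC and USF are known to bind, holds ACGTG on both strands and counts as 2 cores. Where a gene has several starts, the window with most cores is shown.
Hk2, chr6:82774455-82774704, minus strand: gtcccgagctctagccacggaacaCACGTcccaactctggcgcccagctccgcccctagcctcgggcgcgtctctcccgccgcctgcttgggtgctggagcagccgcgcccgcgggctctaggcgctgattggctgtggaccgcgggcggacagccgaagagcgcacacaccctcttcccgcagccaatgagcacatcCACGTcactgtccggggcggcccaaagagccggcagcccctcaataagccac
Pfkfb2, chr1:130715822-130716071, minus strand: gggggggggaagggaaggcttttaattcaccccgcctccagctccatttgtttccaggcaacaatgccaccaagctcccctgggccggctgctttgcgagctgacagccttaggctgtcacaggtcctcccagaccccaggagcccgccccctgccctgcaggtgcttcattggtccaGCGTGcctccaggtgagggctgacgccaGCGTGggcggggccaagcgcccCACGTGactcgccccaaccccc
Eno2, chr6:124769674-124769923, minus strand: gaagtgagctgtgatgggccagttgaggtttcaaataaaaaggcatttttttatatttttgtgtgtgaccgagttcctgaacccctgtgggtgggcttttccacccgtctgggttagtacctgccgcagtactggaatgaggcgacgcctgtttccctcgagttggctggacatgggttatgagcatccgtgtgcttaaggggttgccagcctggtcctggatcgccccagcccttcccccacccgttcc
Ldha, chr7:46845554-46845803, plus strand: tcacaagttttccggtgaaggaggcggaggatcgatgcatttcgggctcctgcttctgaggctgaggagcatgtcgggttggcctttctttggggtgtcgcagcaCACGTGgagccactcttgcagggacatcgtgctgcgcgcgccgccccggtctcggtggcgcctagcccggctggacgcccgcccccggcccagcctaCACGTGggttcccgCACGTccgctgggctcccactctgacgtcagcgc
Pgk1, chrX:106186850-106187099, plus strand: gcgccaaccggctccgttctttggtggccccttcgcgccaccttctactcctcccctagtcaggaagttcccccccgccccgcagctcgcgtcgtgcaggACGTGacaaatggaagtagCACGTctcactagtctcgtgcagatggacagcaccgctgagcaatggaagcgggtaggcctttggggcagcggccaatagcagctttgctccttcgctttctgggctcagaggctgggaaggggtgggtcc

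Ldha has 5 ACGTG cores in its window, through 2 E-boxes and a further core, and Pgk1 and Hk2 have 2 each. Of the windows shown, only for Ldha were the bases after the start not found in a GENCODE transcript of the gene. The other Ldha window holds 0 ACGTG and 1 GCGTG cores. Pfkfb2 has 2 ACGTG and 2 GCGTG cores, and the Eno2 window holds none. Of the 31 measured genes, 29 had an entry in the promoter table (all but Slc2a3 and Slc16a7), with 46 windows. ACGTG was found in the windows of 14 of these 29 genes (48.3%), against 23.7% of the 12174 measured genes with an entry. GCGTG was found for 17 of 29 (58.6%, against 46.6%) and CACGTG for 6 of 29 (20.7%, against 9.5%). Counted by window, ACGTG was in 18 of 46 (39.1%), against 20.3% of the 15553 windows of measured genes. These are matches of letters, not bound sites.

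Levels of different genes can be compared only per length, here as CPM per kilobase of annotated exon averaged over the 6 ovaries. Ldhb, the lactate dehydrogenase subunit typical of oxidative tissue, stood highest at 205 ± 27.8 CPM per kilobase (SD, n = 6). Next came Aldoa, the general aldolase, at 159.7 ± 14.8, and then Ldha (92.8), Tpi1 (91.1) and Pkm (84.6). The ranges of Ldhb and Aldoa overlapped, and so did those of Ldha with Tpi1 and of Tpi1 with Pkm. Ranges over the ovaries therefore do not separate the genes within these groups, and their order inside single ovaries was not compared. Gapdh (52.3) stood apart from its neighbours on both sides, below Pkm and above Gpi1 (31.6).

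**Figure D1:**
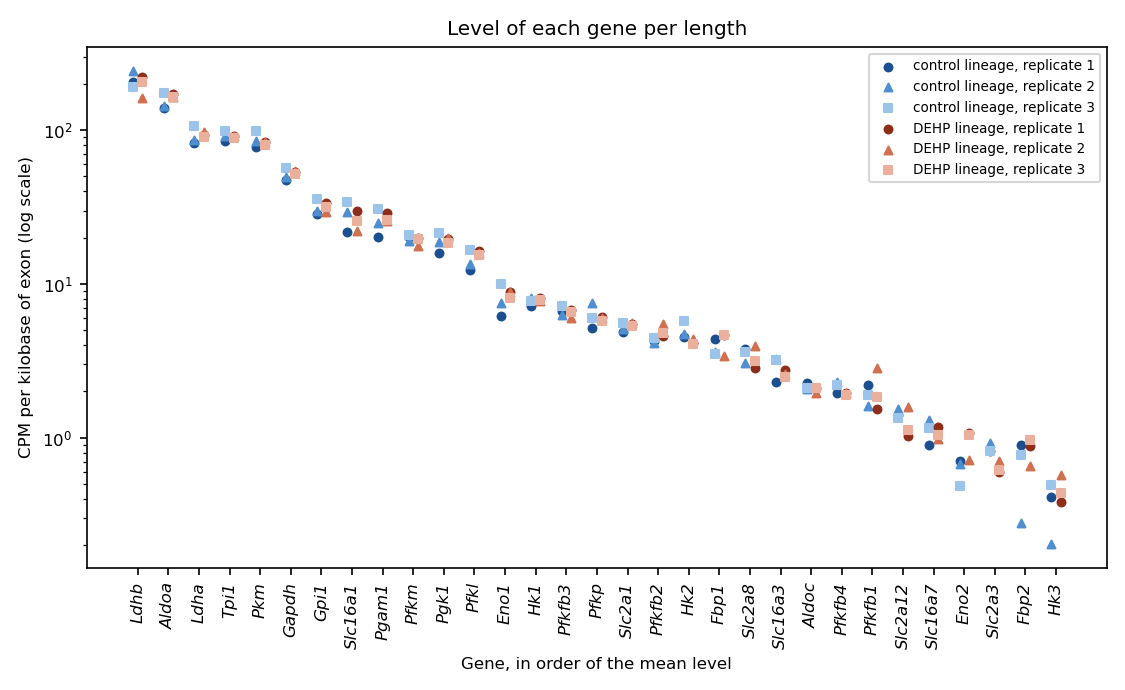
Level of each of the 31 measured genes in each ovary, in CPM per kilobase of exon on a log axis, ordered by the mean over 6 ovaries. Points are single ovaries, control lineage in blue and DEHP lineage in red, and the genes run from Ldhb at 205 to Hk3 at 0.417.

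Below these lay the gate-keeping steps of the pathway. Hk1, the housekeeping hexokinase, reached 7.78 CPM per kilobase, Hk2, the inducible hexokinase, 4.604, and Hk3 0.417. Slc2a1 (GLUT1), the widespread glucose transporter, reached 5.32, while Slc2a3 (GLUT3), a high-affinity transporter, stood at 0.749. Among the transporters of lactate and pyruvate, Slc16a1 (MCT1) led with 27.2, above Slc16a3 (MCT4) at 2.77 and Slc16a7 (MCT2) at 1.09. The lowest levels belonged to Eno2 (0.784), known as the neuronal enolase, Slc2a3, Fbp2 (0.745) and Hk3, and neighbours among these 4 overlapped.

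Exon lengths rest on all annotated transcripts. With the mean length of protein-coding transcripts instead, an alternative chosen after seeing the data, the leading gene was unchanged in each of the 9 steps (Slc2a1, Hk1, Gpi1, Pfkfb3, Aldoa, Pkm, Ldhb, Slc16a1 and Fbp1). The order among these leading genes did change: Aldoa then stood first at 460, followed by Pkm (412) and Ldhb (380.1). Gapdh (223) then stood above Tpi1 (208). Slc2a3 (4.02) left the lowest genes, where Slc2a12 (1.365) then stood between Eno2 (2.555) and Fbp2 (0.808). In the control lineage Hk1 moved from 1.54 to 5.205 times the level of Hk2. Pfkp, the platelet phosphofructokinase, moved from 0.307 to 1.20 times the level of Pfkm, the muscle form, in the control lineage.

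No gene of the set passed an adjusted p of 0.05 between the lineages in limma's moderated test, adjusted by the Benjamini-Hochberg method over all genes, against 7 of 16454 genes (0.0425%). At an unadjusted p under 0.05 the set also gave 0 of 31, while 8.78% of all genes were below it (4.76% in the upward and 4.02% in the downward direction). Mean log2 CPM was higher in the DEHP lineage for 16 genes and lower for 15, with a median difference of 0.02 against -0.01 over all genes. The median size of the difference was 0.11, against 0.12 over all genes, and 24 of the 31 differed by less than 0.2. The 95% interval lay within 0.5 either way for 20 genes, so larger changes are outside the interval for these and inside it for the other 11. In the authors' deposited table the sign was the same for all 31 genes and none had a p-value under 0.05.

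**Figure D2:**
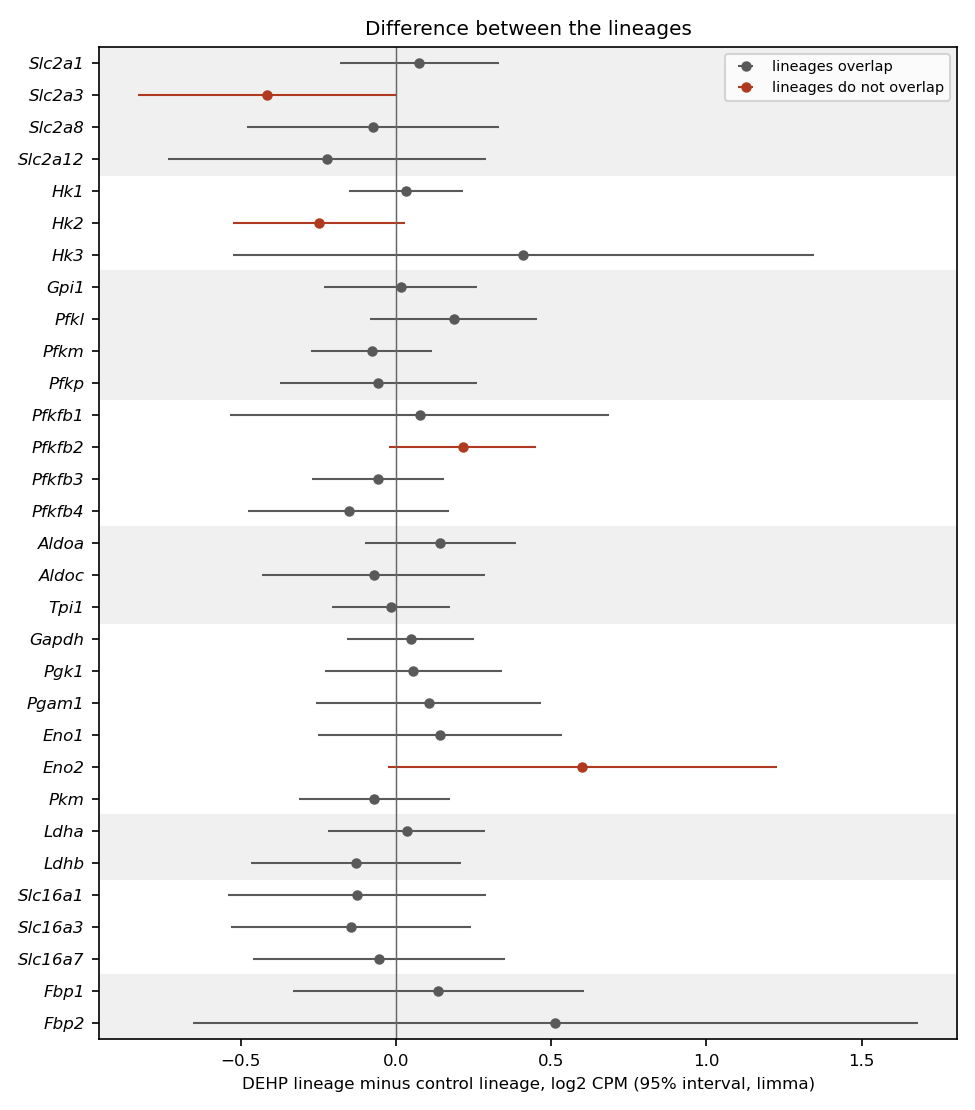
Difference in log2 CPM, DEHP lineage minus control lineage, with its 95% interval from limma for each of the 31 genes, grouped by step (shaded bands). Every interval includes 0, and the 4 genes in red, Slc2a3, Hk2, Pfkfb2 and Eno2, are those whose lineages did not overlap.

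The 2 lineages did not overlap for 4 of the 31 genes (12.9%), against 22.9% of all genes. Slc2a3 and Hk2 were lower in all 3 ovaries of the DEHP lineage (12.2% of all genes lay lower in this way) and Pfkfb2 and Eno2 higher (10.8%). The members' share is below the background, so the count is no result about the set. For 16 genes (51.6%) the 3 DEHP-lineage values lay within the range of the 3 control values, against 27.3% of all genes.

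Among the glucose transporters, Slc2a1 (chr4:119108745-119137330) measured 17.0, 17.8 and 19.7 CPM in the control ovaries and 19.2, 19.5 and 18.7 CPM in the DEHP-lineage ovaries, in order of replicate. The DEHP values lay inside the control range, with a difference of 0.08 on the log2 scale (95% interval -0.18 to 0.33). Slc2a3 (chr6:122727809-122802363) measured 5.97, 6.72 and 5.90 CPM in the control lineage and 4.37, 5.13 and 4.46 CPM in the DEHP lineage. All 3 DEHP-lineage ovaries were below the lowest control ovary. The mean was 6.20 ± 0.453 CPM in control and 4.65 ± 0.415 CPM in DEHP-lineage ovaries (SD, n = 3), a log2 difference of -0.41 (SE 0.18, 95% interval -0.83 to 0.00061, limma adjusted p = 0.569). Slc2a8 (GLUT8, an intracellular transporter) and Slc2a12 (GLUT12) ranged from 9.19 to 12.7 CPM and from 4.38 to 6.77 CPM. Both were highest in DEHP-lineage replicate 2 and lowest in replicate 1.

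Hexokinases phosphorylate glucose and so hold it in the cell. Hk1 (chr10:62268855-62379920) measured 61.4, 69.1 and 66.5 CPM in the control lineage and 69.0, 65.7 and 66.6 CPM in the DEHP lineage, with a difference of 0.03 (95% interval -0.15 to 0.22). Hk2 (chr6:82725025-82774454) measured 27.0, 28.4 and 34.3 CPM in the control ovaries and 24.8, 26.3 and 24.1 CPM in the DEHP-lineage ovaries. The lineages did not overlap, but control replicates 1 and 2 lay closer to the DEHP ovaries than to control replicate 3. The difference was -0.25 (SE 0.12, 95% interval -0.52 to 0.03, limma adjusted p = 0.602), and it was -0.14 without control replicate 3. Hk3, a hexokinase of myeloid cells, ranged from 0.753 to 2.12 CPM and was lowest in control replicate 2.

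Fructose bisphosphate is made by phosphofructokinase, the committed step, which the bifunctional PFKFB enzymes tune through a second, regulatory sugar phosphate. Gpi1, the isomerase before this step (chr7:34201327-34230336), measured 184.9, 192.9 and 230.9 CPM in the control lineage and 218, 190.5 and 205 CPM in the DEHP lineage, with a difference of 0.02 (95% interval -0.23 to 0.26). Pfkl, the liver form, had the largest difference of the 3 phosphofructokinases, 0.19 (SE 0.11, adjusted p = 0.68), with 82.6 to 110.9 CPM in the control and 103.7 to 109.7 CPM in the DEHP lineage. Its control range contained every DEHP value. Pfkm and Pfkp ranged from 59.2 to 70.01 CPM and from 69.2 to 101 CPM, with differences of -0.08 and -0.06.

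Of the PFKFB enzymes, Pfkfb3, the form with the highest kinase activity (chr2:11471430-11554071), measured 50.1, 47.4 and 54.1 CPM in the control ovaries and 51.0, 45.1 and 49.5 CPM in the DEHP lineage. Here the lineages overlapped, with a difference of -0.06 (95% interval -0.27 to 0.15). Pfkfb2, the heart form (chr1:130689043-130729253), measured 30.8, 29.9 and 32.3 CPM in the control lineage and 33.5, 40.1 and 34.6 CPM in the DEHP lineage. All DEHP-lineage ovaries were above the highest control ovary, and replicate 2 stood well above the others. The means were 30.99 ± 1.18 and 36.1 ± 3.51 CPM (SD, n = 3 each), a difference of 0.21 (SE 0.10, 95% interval -0.02 to 0.45, limma adjusted p = 0.595). Without DEHP-lineage replicate 2 the difference was 0.14. Pfkfb2 shares 17.4% of its exon length with Gm29427, a protein-coding gene on the same strand that is not in the table, so reads of this stretch cannot be assigned to either. Pfkfb1 and Pfkfb4 ranged from 6.14 to 11.4 CPM and from 9.21 to 11.2 CPM, and Pfkfb1 was highest in DEHP-lineage replicate 2.

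Aldolase and triosephosphate isomerase produce the triose phosphates. Aldoa (chr7:126795234-126800994) measured 405, 418 and 506 CPM in the control ovaries and 502, 478 and 480.5 CPM in the DEHP lineage. Its DEHP values all lay inside the control range, with a difference of 0.14 (SE 0.10, 95% interval -0.10 to 0.39, adjusted p = 0.728). Aldoc, the brain aldolase, ranged from 6.40 to 7.46 CPM and Tpi1 from 233.8 to 272.7 CPM, with differences of -0.07 and -0.02.

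In the lower part of the pathway ATP and NADH are gained. Pkm, pyruvate kinase (chr9:59656576-59679372), measured 386, 425 and 490.5 CPM in the control lineage and 416, 420.2 and 399 CPM in the DEHP lineage. The control range again contained the DEHP values, with a difference of -0.07 (95% interval -0.31 to 0.17). Gapdh ranged from 196.7 to 235 CPM, with a difference of 0.05 (95% interval -0.16 to 0.25). Pgk1 (35.8 to 48.5 CPM), Pgam1 (39.9 to 61.1 CPM) and Eno1 (33.5 to 53.9 CPM) each had both their lowest and their highest value in the control lineage. Their differences were 0.06, 0.11 and 0.14, with adjusted p-values of 0.836 or more in limma.

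Eno2 (chr6:124760053-124769673) had the largest difference of the set. It measured 3.32, 3.19 and 2.28 CPM in the control ovaries and 5.055, 3.37 and 4.93 CPM in the DEHP lineage. DEHP-lineage replicate 2 lay just above the highest control ovary, and replicates 1 and 3 were well above it. The means were 2.93 ± 0.570 and 4.45 ± 0.937 CPM (SD, n = 3 each), a difference of 0.60 (SE 0.27, 95% interval -0.03 to 1.23, limma adjusted p = 0.576). Markers of erythroid cells (6 of 9 measured) summed to 66.1, 77.8 and 127 CPM in the control lineage and 294, 115.6 and 213 CPM in the DEHP lineage. Their order was that of Eno2 among the DEHP-lineage ovaries and the opposite among the control ovaries. Control replicate 3, with the lowest Eno2 of all, had a higher erythroid sum than DEHP-lineage replicate 2. The part of blood cells in the Eno2 difference was not tested.

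Lactate dehydrogenase is a tetramer of LDHA and LDHB subunits. Ldhb (chr6:142490249-142507957) measured 324, 382 and 301 CPM in the control ovaries and 349, 253 and 324 CPM in the DEHP lineage. DEHP-lineage replicate 2 was lowest and control replicate 2 highest, so the lineages overlapped, with a difference of -0.13 (SE 0.14, 95% interval -0.47 to 0.21, adjusted p = 0.829). Ldha ranged from 273.7 to 352 CPM, both ends in the control lineage, with a difference of 0.04 (95% interval -0.22 to 0.29).

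The monocarboxylate transporters carry lactate and pyruvate across membranes. Slc16a1 (chr3:104638664-104658462) measured 97.0, 130.8 and 150.8 CPM in the control ovaries and 132, 98.5 and 113 CPM in the DEHP lineage. The DEHP values lay within the control range, with a difference of -0.12 (SE 0.18, 95% interval -0.54 to 0.29, adjusted p = 0.867). Slc16a3 (12.2 to 17.4 CPM) and Slc16a7 (10.6 to 15.4 CPM) were both lowest in control replicate 1 and highest in control replicate 2. Fructose bisphosphatases run the reverse, gluconeogenic step. Fbp1 (chr13:62864753-62888298) measured 7.46, 6.14 and 5.99 CPM in the control lineage and 7.98, 5.80 and 7.88 CPM in the DEHP lineage, with a difference of 0.14 (95% interval -0.33 to 0.60). Fbp2, the muscle form, ranged from 0.408 to 1.43 CPM, with its lowest value in control replicate 2.

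**Figure D3:**
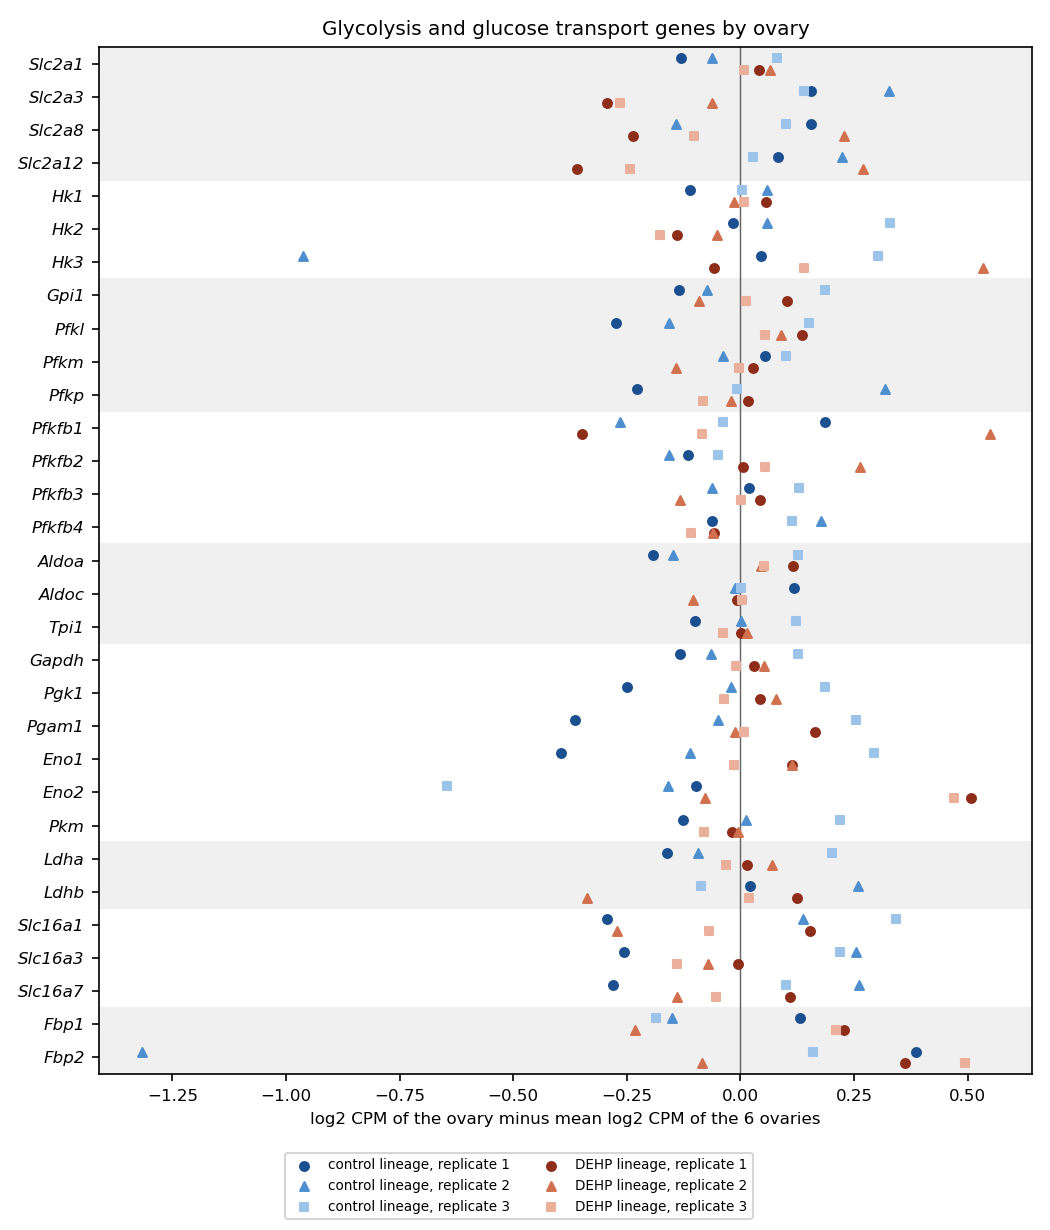
Log2 CPM of each ovary minus the mean of the 6 ovaries for each of the 31 genes, grouped by step (shaded bands), with control-lineage ovaries above and DEHP-lineage ovaries below each gene's line. For many genes control replicate 1 lies lowest and control replicate 3 highest, with the 3 DEHP-lineage ovaries between them, as for Eno1, Pgam1 and Pkm.

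Many of the genes had the same order among the control ovaries. In 13 of the 31 genes (41.9%), control replicate 1 was the lowest and control replicate 3 the highest of the control lineage, against 17.1% of all genes. This ordering was noticed in the values, so its count is a description. The 13 genes span the pathway: Slc2a1, Hk2, Gpi1, Pfkl, Aldoa, Tpi1, Gapdh, Pgk1, Pgam1, Eno1, Pkm, Ldha and Slc16a1. Control replicate 3 exceeded control replicate 1 by 1.16-fold for Slc2a1 at the least and 1.61-fold for Eno1 at the most, and for Pgam1 and Slc16a1 by 1.53-fold and 1.55-fold. Summed over the 31 genes, the level was 2703, 2962 and 3262 CPM in the control ovaries and 3086, 2914 and 2940 CPM in the DEHP lineage. The control range was wider than the difference between the lineages for 27 of the 31 genes. The share of all genes with a wider control range is not given, so this count too is a description.

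Granulosa markers were also lowest in control replicate 1 and highest in control replicate 3 among the control ovaries. Their summed level was 12541, 13804 and 14393 CPM in the control ovaries and 14243, 15409 and 13950 CPM in the DEHP lineage, and 8 of the 13 markers had this order singly. In the DEHP lineage the granulosa sum was highest in replicate 2, where the glycolytic sum was lowest. Erythroid markers had the control order in 5 of 6, with sums of 66.1, 77.8 and 127 CPM. The part of granulosa or blood cells in the order of the glycolytic genes was not tested. Without control replicate 3, Pfkl (0.31), Aldoa (0.24) and Eno1 (0.32) had an unadjusted p under 0.05 in limma and lay higher in the DEHP lineage. Without control replicate 1, Hk2 (-0.32) and Slc16a1 (-0.30) were below this threshold and lay lower. The opposite omission shrank or turned these values: without control replicate 1, Pfkl was 0.097, Aldoa 0.082 and Eno1 -0.020, and without control replicate 3, Slc16a1 was 0.016 and Hk2 closer to 0, as given above. Without DEHP-lineage replicate 2, Eno2 (0.79) was below it and lay higher. None of these 6 passed adjustment.

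Paired isozymes and transporters were compared within each ovary as the log2 CPM of a gene less that of its partner. The difference between Slc2a1 and Slc2a3 was 1.51, 1.41 and 1.74 in the control ovaries and 2.13, 1.93 and 2.07 in the DEHP lineage. Every DEHP-lineage ovary thus had the wider gap, by 0.49 on average, or 8.52 against 6.06 times as much Slc2a1 as Slc2a3 per length of exon (4.43 against 3.15 with coding-transcript lengths). Hk1 less Hk2 was 1.185, 1.28 and 0.96 in the control ovaries and 1.48, 1.32 and 1.47 in the DEHP lineage, again without overlap and wider by 0.28. An exact two-sided permutation test gave p = 0.1 for both, the smallest value that 3 ovaries against 3 allow, and 0.3 after adjustment over the 6 pairs. These pairs hold Slc2a3 and Hk2, whose lineages did not overlap singly, while Slc2a1 and Hk1 differed by 0.08 and 0.03. Both pair results thus largely restate the values of Slc2a3 and Hk2.

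**Figure D4:**
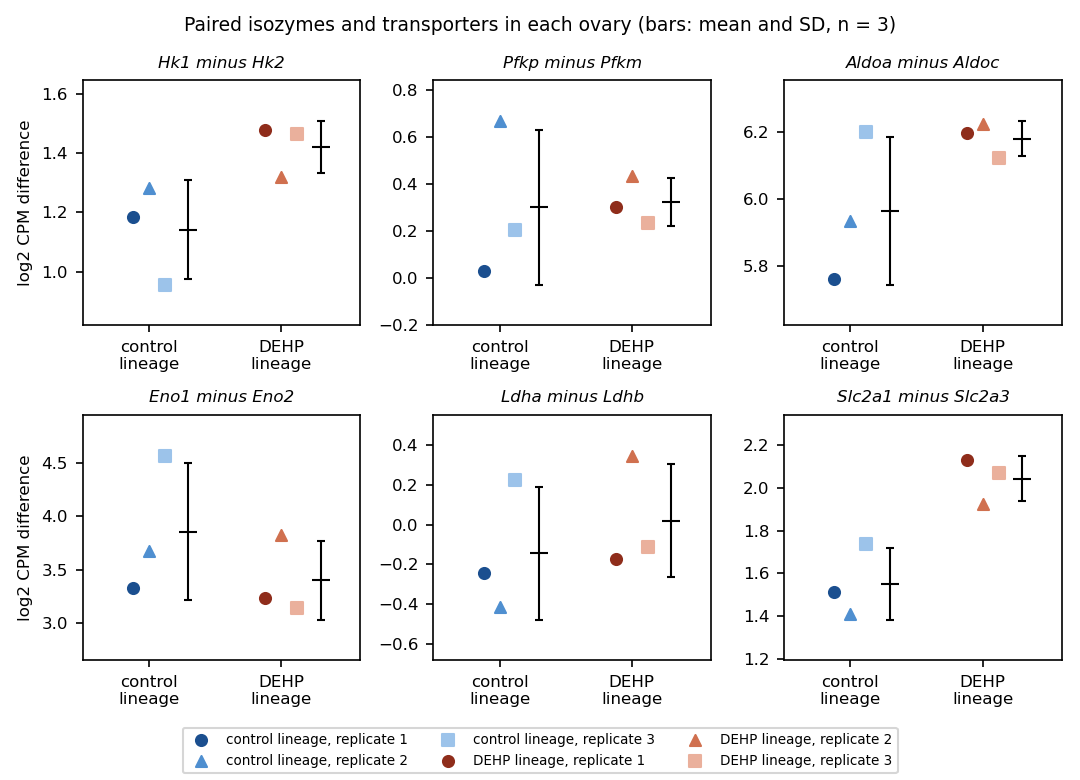
Log2 CPM of a gene minus that of its partner in each ovary for 6 pairs, with points for single ovaries and a bar for the mean and SD of each lineage (n = 3). The lineages separate for Hk1 minus Hk2 and Slc2a1 minus Slc2a3 and overlap for the other 4 pairs.

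The other 4 pairs overlapped between the lineages. Eno1 less Eno2 averaged 3.86 ± 0.64 in control ovaries (SD, n = 3) and was narrower in the DEHP lineage, with a difference of -0.46 (exact permutation p = 0.4, adjusted 0.6). Ldha less Ldhb averaged -0.14 ± 0.33 and 0.02 ± 0.28 (exact permutation p = 0.5, adjusted 0.6), so that Ldha stood at 0.429 and 0.48 times the level of Ldhb per length of exon, or 0.781 and 0.875 times with coding-transcript lengths. Aldoa less Aldoc was wider by 0.21 in the DEHP lineage (exact permutation p = 0.3, adjusted 0.6) and Pfkp less Pfkm by 0.02 (exact permutation p = 0.9, adjusted 0.9).

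Glycolytic genes are rich in processed copies elsewhere in the genome, and no source used here gives the treatment of reads that match several places. At a limit of 20% of 31-base words shared with other genes, 7 of the 31 were above it: Gpi1, Gapdh, Pgk1, Pgam1, Eno1, Pkm and Ldhb. Their levels are uncertain to that extent. Part of this sharing is with genes that overlap the same exons, not with copies elsewhere. Gpi1 shared 12.6% with its copy Gm1840 and 9.54% with Gm26762, which overlaps it on the opposite strand. Pkm shared 17.9% with its copy Gm6560 and 13.4% with Gm49759, which overlaps it on the same strand. Ldha (19.6%) and Pfkfb2 (18.9%) were just under this line, and Pfkfb2 shared 16.6% with the overlapping Gm29427. Pgk1 shared most, 54.7%, and its copies were not in the table. Gm13394, a copy of Gapdh, had a mean of 91.3 CPM in the control and 86.7 CPM in the DEHP lineage. Summed with Gapdh it gave 281.5 to 333.5 CPM, with both ends in the control lineage. Gm5514, the copy of Ldhb, had a mean of 19.3 CPM in the control and 11.6 CPM in the DEHP lineage, and Ldhb with this copy ranged from 267 to 392 CPM.

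Lists of neighbouring pathways, 106 genes of which 94 were measured, were read in the same fit. None of the 94 passed the adjusted threshold, and at an unadjusted p under 0.05, 7 lay higher (4.76% of all genes did) and 4 lay lower (4.02%) with DEHP ancestry. With so few genes a list, the counts below are descriptions. The list of pyruvate entry to mitochondria (11 of 11 measured) held the gene with the smallest p, Pdk4, a kinase that inactivates pyruvate dehydrogenase and so spares pyruvate. Pdk4 had log2 CPM of 4.53, 4.91 and 4.30 in the control ovaries and 5.30, 5.21 and 5.27 in the DEHP lineage. Its difference was 0.68 (SE 0.16, 95% interval 0.31 to 1.04, limma adjusted p = 0.382), with no overlap between the lineages. Pdk3 (-0.20, adjusted p = 0.558), another such kinase, and Pdp2 (-0.23, adjusted p = 0.653), a phosphatase with the opposite action, followed in this list.

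Among HIF targets outside glycolysis (12 of 12 measured, 2 higher and 0 lower at an unadjusted p under 0.05), Bnip3, a mitophagy receptor, differed by 0.28 (limma adjusted p = 0.491), Vegfa, the angiogenic factor, by 0.31 (0.534) and Ndrg1 by 0.40 (0.58). All 3 lay higher in every DEHP-lineage ovary than in any control ovary, as 10.8% of all genes did. Car9, Adm and Mxi1 of the same list, named after their values were seen, lay lower. Car9 separated (-0.22, limma adjusted p = 0.752), while Adm (-0.40, 0.686) and Mxi1 (-0.09, 0.819) overlapped. By mean, 9 genes of the list were higher and 3 lower in the DEHP lineage. In the glycogen list (10 of 12 measured, 1 higher and 1 lower), Phka1, a subunit of phosphorylase kinase, differed by 0.24 (adjusted p = 0.524) and Gys1, glycogen synthase, by 0.15 (0.621). In the NADH shuttles (9 of 10 measured, 0 higher and 2 lower), Slc25a12, the aspartate-glutamate carrier, differed by -0.21 (adjusted p = 0.501), Got2, mitochondrial aspartate transaminase, by -0.20 (0.506) and Mdh2, malate dehydrogenase, by -0.12 (0.649).

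Txnip, which limits glucose uptake, led the list of transporter partners and insulin signalling (12 of 12 measured, 1 higher and 0 lower) with a difference of 0.35 (limma adjusted p = 0.532), followed by Igf1r (-0.15, 0.607) and Arrdc4 (-0.46, 0.644). The Arrdc4 value rests on DEHP-lineage replicate 2, without which it was -0.15. Among regulators of glycolysis (18 of 18 measured, 1 higher and 0 lower), Mlxipl, which encodes the glucose-sensing factor ChREBP, differed by 0.72 (adjusted p = 0.529), Sirt6 by 0.22 (0.646) and Epas1, which encodes HIF-2-alpha, by -0.10 (0.739). Other isozymes and transporters (13 of 22 measured, 1 higher and 0 lower) were led by Eno4 at 0.80 (adjusted p = 0.543), Adpgk at -0.15 (0.576) and Bpgm at -0.16 (0.68). The pentose phosphate and hexosamine list (9 of 9 measured, 0 either way) was led by Rpe at -0.37 (0.57), Gfpt2 at 0.20 (0.656) and Taldo1 at -0.09 (0.739). Single ovaries also moved other values of these lists by over 1.5 times: without DEHP-lineage replicate 2, Bpgm was -0.065 and Sirt6 0.13. Without control replicate 3, Ndrg1 was 0.22, Pdp2 -0.13 and Gfpt2 0.13. Without control replicate 1, Vegfa was 0.19 and Epas1 -0.068, and without control replicate 2, Gfpt2 was 0.32.

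No marker list had a gene at an adjusted p under 0.05. Summed smooth muscle markers (7 of 7 measured) ran from 1906 to 2135 CPM in the control lineage and from 1505 to 1766 CPM in the DEHP lineage, and theca and interstitial markers from 2854 to 3540 CPM and from 2644 to 2735 CPM, with no overlap for either. Oocyte markers ran from 1371 to 1726 CPM and from 1263 to 1415 CPM, stroma markers (7 of 7) from 3388 to 3966 CPM and from 3296 to 3419 CPM, and blood endothelium markers (7 of 8) from 391 to 430 CPM and from 341 to 396 CPM, each with overlap. Adipocyte markers (10 of 10 measured) were highest in DEHP-lineage replicate 2 at 620 CPM, against 86.6 to 285 CPM in the other ovaries, and Slc2a8, Slc2a12, Hk3, Pfkfb1 and Pfkfb2 were highest in this ovary too. Macrophage markers (9 of 9 measured) were lowest in control replicate 2 at 49.5 CPM, against 91.5 to 140.5 CPM elsewhere, and so were Hk3, Fbp2 and Pfkfb2. The share of all genes that were highest or lowest in these ovaries is not given, so both lists of genes are descriptions. Skeletal muscle markers summed to 7.37 to 11.1 CPM, and 6 of 14 (Myh1, Myh3, Myh4, Tnnc2, Myl1 and Mb) were not in the table. None of the 6 neutrophil markers was in the table, and of 6 male germ cell markers only Ldhc was. The part of these cells in the levels above was not tested.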

How the data were processed

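RNA from 6 whole ovaries was sequenced, and the authors deposited log2 CPM (counts scaled to library totals) per ovary after removing a surrogate variable, per the file headers and name, with their own log2 fold changes and p-values. The submitters' processing notes name build GRCm38.p6 and, without roles, edgeR 3.20.5, R 3.4.3, featureCounts in Subread 1.5.2, STAR 2.5.3a, Trimmomatic 0.36, FastQC 0.11.5 and bcl2fastq 2.17.1.14. No source used here gives the prior count, filters or strand setting. The lineages were compared with limma 3.58.1 in R 4.3.3 (moderated test with mean-variance trend, two-sided, Benjamini-Hochberg over 16454 genes), using 3 residual degrees of freedom because a direction had been removed. The fit was tested on simulated data. Isozyme pairs were compared by exact permutation over samples. Exon lengths come from GENCODE, coordinates and promoters from RefSeq. Full values are given for genes without overlap, with an unadjusted p under 0.05 or leading their step per length, and for the 3 smallest p of each pathway list, of which 1 is not reported here. The genes and lists were chosen with earlier results of these data known. A mean column over ovaries was not used. Alternatives changed scaling, filter, pseudocount, trend, degrees of freedom, block and replicates.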

Additional observations from a re-analysis of the deposited data

How the results depend on the processing

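No gene of the set passed an adjusted p of 0.05 in limma under any of the alternatives run. These included leaving out single ovaries. Leaving out the genes above the limit of shared words could not change a count of 0. At an unadjusted p under 0.05, where the main count was 0, it was 4 with 4 residual degrees of freedom (Slc2a3, Hk2, Pfkfb2 and Eno2), 1 with quantile normalization, with a mean log2 CPM of at least 0, with log2(CPM + 1) and without the mean-variance trend (Slc2a3 each time), 1 with replicates 1 and 3 of the DEHP lineage averaged (Pfkfb2), and 0 to 3 with an ovary left out. For the other pathway genes this count, 11, became 18 with 4 degrees of freedom, 6 without the trend and 3 to 10 with an ovary left out. Their adjusted count, 0, was 0 to 4 with an ovary left out: 4 without DEHP replicate 1 (Pdk4, Mlxipl, Arrdc4 and Gpd1) and 3 without DEHP replicate 3 (Pdk4, Mlxipl and Arrdc4), where 270 and 183 of all genes passed. In both of these fits limma set each gene's variance by the trend over all genes, not by the gene's own spread. Gpd1, for example, ran from 1.64 to 4.85 log2 CPM among the control ovaries. Ovaries with the same replicate number did not resemble each other in the deposited values (correlations of deviations -0.33, -0.0034 and -0.20, and 0 samples closest to their own number). A direction had been removed from these values, so whether the ovaries were paired before its removal cannot be told. With the replicate block, where limma also took the variance from the trend alone, 3 other pathway genes had an unadjusted p under 0.05.

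The sign held in all 14 alternatives for 15 genes and changed for 16. Gpi1 became -0.0089 with DEHP replicates 1 and 3 averaged, and Tpi1 0.011 with quantile normalization. With an ovary left out, log2 differences ran from -0.21 to 0.026 for Slc2a8, -0.015 to 0.071 for Hk1, -0.047 to 0.11 for Gpi1, -0.18 to 0.089 for Pfkp, -0.18 to 0.27 for Pfkfb1, -0.069 to 0.042 for Tpi1, -0.0070 to 0.12 for Gapdh, -0.055 to 0.16 for Pgk1, -0.049 to 0.26 for Pgam1, -0.020 to 0.32 for Eno1, -0.15 to 0.023 for Pkm, -0.037 to 0.14 for Ldha, -0.22 to 0.0081 for Ldhb, -0.30 to 0.016 for Slc16a1, -0.21 to 0.062 for Slc16a7 and -0.016 to 0.84 for Fbp2. For Pfkp less Pfkm the range was -0.11 to 0.21. The cause of these changes was not tested. Depth is unknown, so precision of the lowest genes cannot be given.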
